A study of Mus musculus with 6 samples.

Results

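Guanylate-binding proteins (GBPs) are large GTPases of the dynamin superfamily that cells make in response to interferon, above all interferon gamma. They assemble on vacuoles that hold microbes and on bacteria in the cytosol, where they help to open the vacuole and to start inflammasome signalling. In mice their genes lie in clusters on chromosomes 3 and 5. The Atg8 conjugation system, of which Atg5 is a part, is known to be needed for GBPs and the related immunity-related GTPases to reach such vacuoles in the usual way. Interferon also acts on haematopoietic stem cells, in which it is known to raise Sca-1.

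The 10 genes Gbp2 to Gbp11 were followed through every non-control probe that carries their name on the arrays, which gave 12 probes of 56605 on the array and 10 genes of 16087 tested. Gbp5 and Gbp8 had more than 1 probe, and the other genes had 1 each. All 12 probes passed the filter on dim signal, for which 3 or more of the 6 arrays had to show the probe well above background, and 9 of them were well above background on all 6. Of the remaining 3, the Gbp6 probe was well above background on 2 control arrays, the Gbp9 probe on 1 and the second Gbp8 probe on 0, so that the last one passed only through the group in which it was higher.

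The cells were bone marrow LSK cells (Lineage−Sca1+c-Kit+), a fraction that holds haematopoietic stem cells and early progenitors, from C57BL/6 mice at P6-P8. The control group was Atg5w/w;VaviCre+ and the other group is labelled Atg5f/f;Vav, with loxP sites around part of Atg5 on both alleles. Both groups carried the Vav-iCre transgene, which is active across haematopoietic cells from fetal life onwards and not only in stem cells. There were 3 arrays in each group, 1 sample per array, and neither the labels nor the methods say whether a sample was 1 mouse or a pool, so n and SD refer to arrays and p-values measure only the spread between these samples. The 3 control arrays lay in 1 row of the slide and the 3 others in the next row, and the position on the slide and the genotype cannot be told apart. The question addressed here is how the GBP genes differed between the groups.

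Values are log2 signals, each minus the 75th percentile of its own array, so that a difference of 1 is a 2-fold change. They follow the brightness of a probe, so no level is set against that of another probe, and where the probe with the highest signal of a list is named, its gene need not be the most abundant. That percentile lay at an intensity of 656.8, 651.7 and 746.2 for control and 881.4, 698.4 and 620.3 for Atg5f/f;Vav. Spots well above background made up 59.9%, 59.4% and 59.9% for control and 56.7%, 55.8% and 53.6% for Atg5f/f;Vav. A probe was called when its adjusted p from limma (Benjamini-Hochberg over 32074 probes, 2-sided) was under 0.05.

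The Atg5 probe, which starts at base 2251 of the transcript (mm9, chromosome 10, 44083997 to 44084056), did not show a loss of signal in the group labelled Atg5f/f;Vav. It stood at 1.10, 0.93 and 1.06 in control cells, and at 1.46, 1.51 and 1.74 on the arrays labelled Atg5f/f;Vav, a rise of 0.54 ± 0.12 (log2 difference ± SE, limma adjusted p = 0.0209). It was not determined if the floxed exon overlaps the probe, so it checks neither the deletion nor the labels. Read out were 8 surface marker genes, of which Kit and Ly6a encode the markers of the LSK gate itself. Kit and Cd34 were well above background on every array. Ly6a, which encodes Sca-1, rose by 1.57 ± 0.15 (limma adjusted p = 0.00623), and Procr, a stem cell surface receptor, fell by 1.56 ± 0.40 (limma adjusted p = 0.0273). The fall of Procr was not called without any 1 of the control arrays (limma adjusted p from 0.0598 to 0.0901) or under spike-in scaling (−1.01). Of these 8 marker genes, 1 rose and 2 fell, near the 20.1% and 14.4% of all genes. The other fall was that of Ptprc (CD45), whose difference of −0.34 turned to 0.21 under spike-in scaling. Called lower were 4 under another background correction (normexp), quantile normalisation and a percentile over probes seen on every array. Kit (−0.35, −0.70 and −0.58) and Flt3 (−0.84, −1.19 and −1.08) were among them. Under spike-in scaling and without any 1 of the control arrays, 0 were called lower.

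Some arrays stood apart in genes of other cells. Col1a1, a collagen of stromal cells, stood at −4.14 on control replicate 1 but at 3.23 and 2.95 on control replicates 2 and 3, and at −5.23, −5.16 and −5.49 on the arrays labelled Atg5f/f;Vav, where it was not well above background. Results on GBPs are therefore also given without single control arrays.

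The representing probe of each of the 10 GBP genes, which is the probe of the gene with the highest mean signal, rose in the group labelled Atg5f/f;Vav. For Gbp8, Gbp9 and Gbp10 that probe also names other GBP genes, so that a rise of these 3 genes themselves is not shown by it. The log2 difference ran from 0.81 for Gbp10 to 4.58 for Gbp6, with a median of 2.10, and the adjusted p from limma ran from 0.00511 to 0.0181. On each of the 10 probes the lowest array labelled Atg5f/f;Vav was above the highest control array. Among all genes tested, 20.1% were called higher and 14.4% lower, and the median log2 difference was −0.01. A log2 difference of at least 2 was seen in 6 of the 10 GBP genes and in 0.814% of all genes tested.

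Counted by probe, 11 of 12 were called higher and 0 lower by limma, or 10 of 11 without the second Gbp8 probe, which passed the filter only through the group in which it was higher, with 11 at an unadjusted p under 0.05 in limma and 11 in the methods' t-test. Of all probes tested, 34.4% were called in either direction, 17.3% higher and 17.1% lower. The same 11 probes had no overlap between the groups, with every array labelled Atg5f/f;Vav above every control array, as did 27.1% of all probes, and without the second Gbp8 probe there were 10 of 11. Among all probes called, 5540 were higher and 5484 lower. That balance depends on the scaling, with 3371 higher and 10088 lower under a percentile taken over the probes seen on every array and 4402 higher and 486 lower under spike-in scaling, while 11 GBP probes were called higher under each of them, though spike-in scaling gave 1 common SE to every probe and its p-values say little. A permutation of 3 arrays against 3 cannot give a p under 0.1 (exact, 2-sided), which each representing probe reached.

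**Figure D1:**
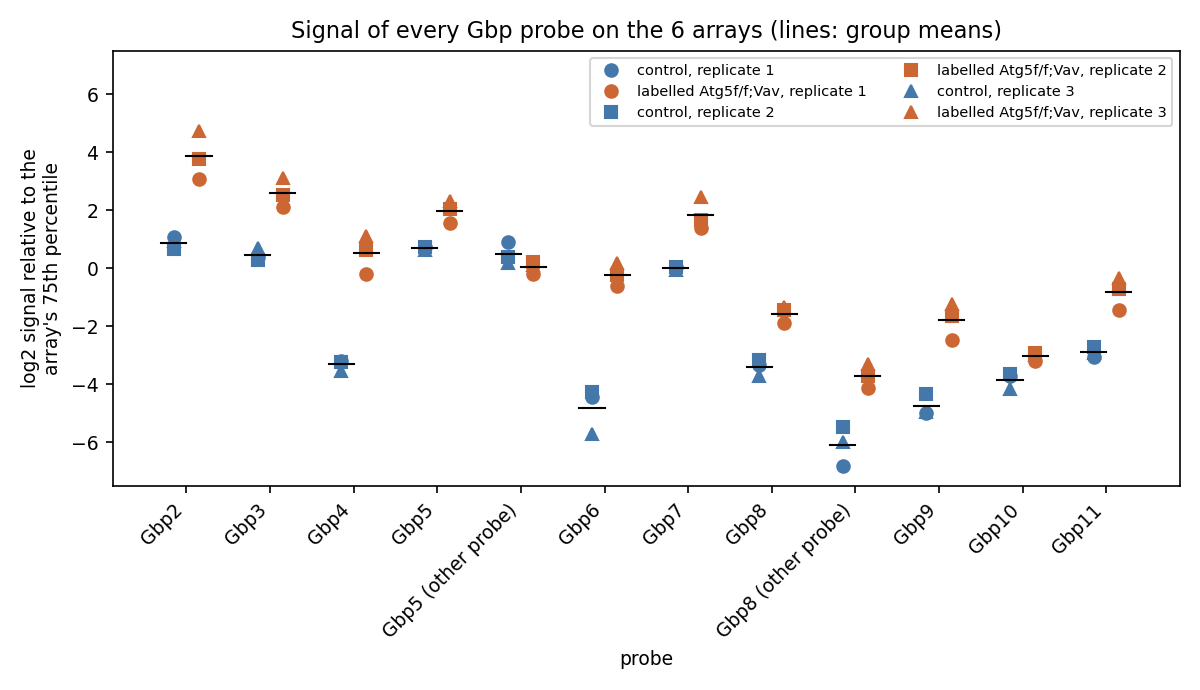
The log2 signal of each of the 12 GBP probes (y axis, relative to the array's 75th percentile) is plotted for the 3 control arrays (blue) and the 3 arrays labelled Atg5f/f;Vav (orange), with 1 symbol for each replicate number and lines at the group means. The groups are apart for 11 probes and overlap for the other Gbp5 probe, and levels are not comparable between probes.

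The chromosome 3 cluster was represented by Gbp5, Gbp7, Gbp3 and Gbp2, in that order along the plus strand, within 116 kb of mm9 (chromosome 3, 142184779 to 142300778). Its median log2 difference was 1.98 over 4 genes. The difference was 1.27 for Gbp5, 1.84 for Gbp7, 2.13 for Gbp3 and 2.97 for Gbp2 on their representing probes. Gbp2b, another gene of the cluster, lies between Gbp3 and Gbp2 and could not be tested.

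Gbp2 encodes a GBP that is prenylated at its C-terminus and coats vacuoles of Toxoplasma. Its probe (chromosome 3, 142300719 to 142300778, from base 2201 of the transcript) stood at 1.09, 0.65 and 0.93 in control cells, and at 3.08, 3.77 and 4.72 on the arrays labelled Atg5f/f;Vav. The lowest of the latter was 1.99 above the highest control array, and the spread was larger in the group labelled Atg5f/f;Vav (SD 0.82 against 0.22, n = 3 each). The rise of 2.97 ± 0.39 corresponds to 7.83-fold (limma adjusted p = 0.0114).

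Gbp3 encodes another member of this cluster. It stood at 0.37, 0.30 and 0.70 in control cells, and at 2.12, 2.51 and 3.12 on the others (142236072 to 142236131, from base 2534). No array of the group labelled Atg5f/f;Vav came within 1.42 of the highest control array. The rise was 2.13 ± 0.26, or 4.37-fold (limma adjusted p = 0.0101).

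Gbp7 encodes a GBP linked to the assembly of the phagocyte NADPH oxidase. The control arrays stood close together at 0.06, 0.03 and −0.07 (SD 0.07, n = 3), and the arrays labelled Atg5f/f;Vav at 1.38, 1.68 and 2.47 (142209379 to 142209438, from base 1885). Replicate 3 was the highest of them. The rise was 1.84 ± 0.27, or 3.58-fold (limma adjusted p = 0.0138).

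Gbp5 encodes a prenylated GBP known for its part in NLRP3 inflammasome assembly, and its pair of probes gave different results. The representing probe (142184779 to 142184838, from base 2491 of the RefSeq transcript) stood at 0.74, 0.73 and 0.63 in control cells, and at 1.56, 2.03 and 2.31 on the arrays labelled Atg5f/f;Vav. The groups were apart by 0.82 or more, and the rise was 1.27 ± 0.19, or 2.41-fold (limma adjusted p = 0.0145). The other probe (142181426 to 142181485, from base 1714 of an Ensembl transcript) stood at 0.90, 0.38 and 0.19 in control cells, and at −0.20, 0.22 and 0.11 on the others. There the groups overlapped, and the difference of −0.45 ± 0.21 was not called (limma adjusted p = 0.133, exact permutation p = 0.2). The representing probe minus the other probe, taken within each array, was 1.72 larger on the arrays labelled Atg5f/f;Vav, with no overlap between the groups. This pair was singled out after its values were seen. Averaging the probes gave Gbp5 a difference of 0.41 that was not called (limma adjusted p = 0.119), so that the call for Gbp5 rests on the representing probe.

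RefSeq promoter windows of GRCm38.p6, 250 bases before to 50 after a start, were matched by symbol for 4 of the 10 genes, all in the chromosome 3 cluster. They were searched on both strands for the core of the interferon-stimulated response element (ISRE), written as TTTC, any 2 bases and TTTC again, to which interferon regulatory factors bind. The ISRE core was present in a window of all 4 genes and in 3.44% of 32851 promoters of the same length. A match says only that these letters are there. The 250 bases before the start of each gene are shown because the 4 genes moved together, on the plus strand of chromosome 3 at 3:142496684-142496933 for Gbp5, 3:142530086-142530335 for Gbp7, 3:142559794-142560043 for Gbp3 and 3:142620413-142620662 for Gbp2, with the matches in capitals.
Gbp5: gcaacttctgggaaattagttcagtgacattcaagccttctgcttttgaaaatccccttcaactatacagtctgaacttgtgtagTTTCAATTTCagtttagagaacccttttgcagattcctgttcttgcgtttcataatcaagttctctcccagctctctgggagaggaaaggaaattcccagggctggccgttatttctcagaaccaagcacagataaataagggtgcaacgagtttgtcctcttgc
Gbp7: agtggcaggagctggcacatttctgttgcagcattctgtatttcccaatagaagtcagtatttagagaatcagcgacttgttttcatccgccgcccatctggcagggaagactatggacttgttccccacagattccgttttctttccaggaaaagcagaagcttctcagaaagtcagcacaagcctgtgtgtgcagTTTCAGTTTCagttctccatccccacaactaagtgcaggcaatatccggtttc
Gbp3: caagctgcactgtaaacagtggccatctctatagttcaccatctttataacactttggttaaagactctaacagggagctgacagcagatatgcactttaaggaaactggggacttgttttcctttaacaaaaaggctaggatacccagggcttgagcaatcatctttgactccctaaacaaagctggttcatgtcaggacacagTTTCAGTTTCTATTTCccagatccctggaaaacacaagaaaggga
Gbp2: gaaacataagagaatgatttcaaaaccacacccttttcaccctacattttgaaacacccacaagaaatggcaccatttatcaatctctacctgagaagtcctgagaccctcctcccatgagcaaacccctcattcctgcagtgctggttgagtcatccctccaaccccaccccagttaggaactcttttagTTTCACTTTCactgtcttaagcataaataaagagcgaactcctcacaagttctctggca
The ISRE core begins 165 bases before the start in Gbp5, 53 in Gbp7 and 59 in Gbp2. In Gbp3 it begins at 45 and again at 39, and these matches overlap. The second Gbp3 window held no match, from which nothing follows about the factors.

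The chromosome 5 cluster was represented by Gbp8, Gbp9, Gbp4, Gbp10, Gbp6 and Gbp11 in the order of their coordinates, all on the minus strand, within 308 kb of mm9 (chromosome 5, 105443767 to 105752204). Its median log2 difference was 2.53 over 6 genes. The largest and the smallest difference among the representing probes, those of Gbp6 and Gbp10, were both in this cluster. With another background correction (normexp) the largest was that of Gbp4, and the mean of a gene's probes was smaller for Gbp5 on chromosome 3 (0.41) than for Gbp10. RefSeq lists 9 of the 10 GBP genes as protein coding and Gbp11 as a transcribed pseudogene.

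Gbp6 encodes a GBP of the chromosome 5 cluster. Its probe (105700081 to 105700140, from base 3896) stood at −4.43, −4.27 and −5.71 in control cells, where 2 of 3 were well above background, and at −0.62, −0.23 and 0.18 on the arrays labelled Atg5f/f;Vav. The gap between the groups was 3.65. The rise was 4.58 ± 0.40 (limma adjusted p = 0.00547), 4.12 without control replicate 3 and 2.87 with normexp. With control replicate 3 raised to the lowest signal well above background on that array, it was 4.34. That value holds for this background correction and is no lower limit under another.

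Gbp4 stood at −3.20, −3.22 and −3.53 in control cells, and at −0.19, 0.64 and 1.13 on the others (105544852 to 105544911, from base 4412). All 6 arrays were well above background for this probe, and the groups were apart by 3.01. The rise of 3.84 ± 0.32 corresponds to 14.4-fold (limma adjusted p = 0.00511), and it was 2.94 on the log2 scale with normexp.

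Gbp11 stood at −3.07, −2.70 and −2.92 in control cells, and at −1.42, −0.70 and −0.34 on the others (105752145 to 105752204, from base 2548). Every array was well above background, and the groups did not overlap. The rise was 2.07 ± 0.27, or 4.21-fold (limma adjusted p = 0.0116), and 1.49 on the log2 scale with normexp.

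The remaining genes of the cluster had probes whose accessions name more than 1 GBP gene, so their signal cannot be given to a single gene. For Gbp8, the representing probe (105443767 to 105443826, from base 1804) names Gbp8 and Gbp11. It stood at −3.33, −3.15 and −3.72 in control cells, and at −1.90, −1.45 and −1.34 on the others, a rise of 1.84 ± 0.21 (limma adjusted p = 0.00865) that was 1.14 with normexp. The other Gbp8 probe (105443951 to 105444010, from base 1620) names Gbp8 alone. Its control values of −6.81, −5.48 and −5.99 were not well above background on any array, against −4.14, −3.70 and −3.31 on the arrays labelled Atg5f/f;Vav. Against the lowest signal that counted as well above background, it was at least 2.20-fold higher. Having passed the filter only through that group, it had to differ, and its p is not given.

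The Gbp9 probe names Gbp9, Gbp10, Gbp4 and Gbp6. Its 60 bases, from base 523 of the Gbp9 transcript, match a span of 242 bases on the minus strand of mm9 (5:105523238-105523479), so that the match is split. The sequence is shown because it is the probe shared most widely within the family.
Gbp9 probe: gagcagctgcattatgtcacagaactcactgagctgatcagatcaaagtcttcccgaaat
It stood at −5.01, −4.35 and −4.94 in control cells, where 1 of 3 was well above background, and at −2.47, −1.65 and −1.22 on the others. The groups were apart by 1.88, and the log2 difference was 2.99 ± 0.34 (limma adjusted p = 0.00865), or 1.47 with normexp. The other 2 control arrays were not well above background. With the value of each raised to the lowest signal well above background where it lay below that, the difference was 2.91, which is no lower limit under another background correction.

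The Gbp10 probe (105644753 to 105644812, from base 3433) names Gbp10 and Gbp6, and had the smallest difference among the representing probes. It stood at −3.71, −3.66 and −4.17 in control cells, and at −3.20, −2.93 and −2.98 on the others. The gap between the groups was 0.46. The rise was 0.81 ± 0.17, or 1.75-fold (limma adjusted p = 0.0181), and 0.38 with normexp. The Gbp6 probe rose by more than the Gbp10 probe that also names Gbp6, with a within-array difference between these probes that was 3.77 larger on the arrays labelled Atg5f/f;Vav and did not overlap between the groups. That size is not exact, since the Gbp6 signal on control replicate 3 was not well above background. This pair, too, was singled out after its values were seen.

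**Figure D2:**
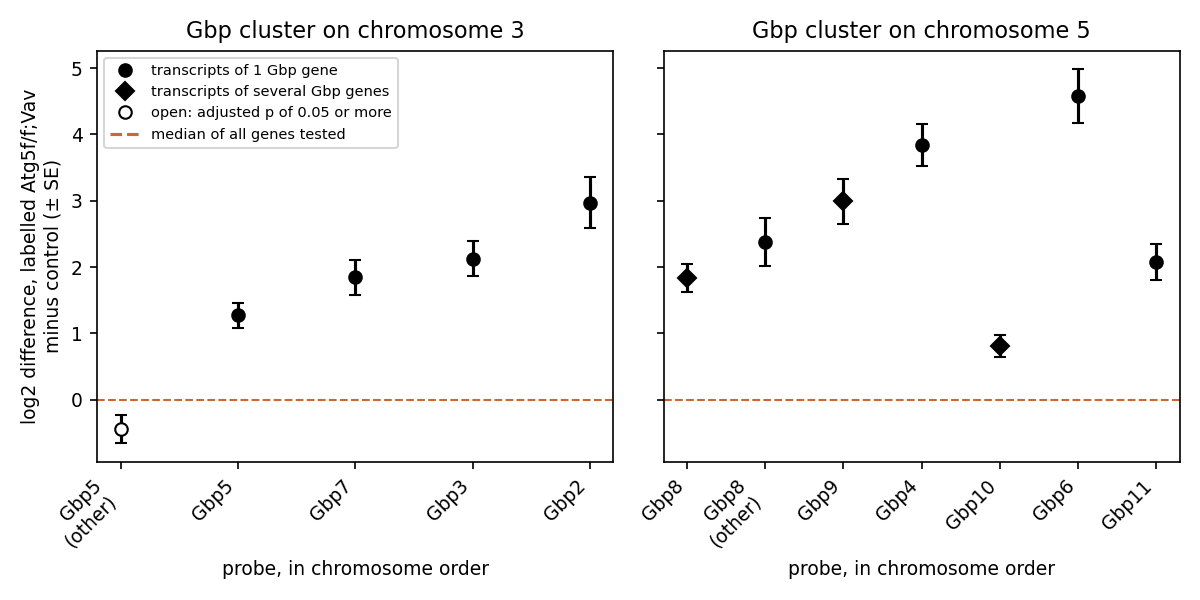
The log2 difference between the group labelled Atg5f/f;Vav and the control group (y axis, ± SE from limma) is plotted for each probe in chromosome order, for the clusters on chromosomes 3 and 5. Circles are probes that name 1 GBP gene and diamonds are probes that name several, the open circle is the Gbp5 probe that was not called, and the dashed line is the median of all genes tested (−0.01).

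Ordered by their log2 difference, the representing probes of the genes ran Gbp6, Gbp4, Gbp9, Gbp2, Gbp3, Gbp11, Gbp7, Gbp8, Gbp5 and Gbp10. Since the probes of Gbp8, Gbp9 and Gbp10 name other GBP genes too, that of Gbp9 also Gbp4 and Gbp6, this is an order of probes. For each of the 9 neighbouring pairs in this order, the difference between the probes was taken within each array and compared between the groups. It overlapped between the groups in 5 pairs, which were Gbp9 and Gbp2, Gbp3 and Gbp11, Gbp11 and Gbp7, Gbp7 and Gbp8, and Gbp5 and Gbp10. In the other 4 pairs the groups did not overlap, with the rise larger by 0.73 for Gbp6 than for Gbp4, by 0.86 for Gbp4 than for Gbp9, by 0.84 for Gbp2 than for Gbp3 and by 0.57 for Gbp8 than for Gbp5. With normexp the first and the last of these turned, to −0.073 for Gbp6 against Gbp4 and −0.076 for Gbp8 against Gbp5, and the groups overlapped in both, while Gbp4 against Gbp9 (1.47) and Gbp2 against Gbp3 (0.88) kept their direction and did not overlap. Of the 5 pairs that overlapped, normexp turned Gbp9 against Gbp2 from 0.02 to −1.46 with no overlap and Gbp11 against Gbp7 to −0.27 with overlap, and it set apart Gbp3 and Gbp11 (0.55), Gbp7 and Gbp8 (0.62) and Gbp5 and Gbp10 (0.83). With quantile normalisation the 4 pairs kept their direction and did not overlap, and Gbp11 and Gbp7 were set apart as well (0.50). It turned Gbp3 against Gbp11 to −0.27 and Gbp7 against Gbp8 to −0.31, both with overlap. The order is therefore not settled across background corrections and normalisations. With control values at background raised as above, Gbp6 against Gbp4 was 0.50 and Gbp4 against Gbp9 0.93, again with no overlap. Gbp9 against Gbp2 turned to −0.05 there, with overlap.

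The arrays labelled Atg5f/f;Vav differed among themselves in the same way for most members, though not under every scaling. Relative to the mean of the control arrays, the median over the 10 genes was 1.58, 2.12 and 2.61 on replicates 1, 2 and 3, against 0.06, 0.14 and −0.13 on the control arrays. Replicate 3 was the highest of the group for 9 genes, with Gbp10 as the exception, and replicate 1 was the lowest for all 10. The SD was larger than in the control group for 8 of the 10 genes. Under spike-in scaling this order was lost, with medians of 2.53, 2.84 and 2.58 on replicates 1, 2 and 3, replicate 3 the highest for 2 genes, replicate 1 the lowest for 6, and an SD larger than in the control group for 5. All 10 genes still had every array labelled Atg5f/f;Vav above every control array there. The SD of the 3 medians was 0.51 relative to the 75th percentile and 0.17 relative to the spike-ins. Replicates have no order, and the genes share the arrays, so this is a description of these 3 arrays. Klf1, an erythroid transcription factor, had the same order relative to the 75th percentile, at −0.21, 0.85 and 1.93 on replicates 1, 2 and 3 labelled Atg5f/f;Vav. It is 1 of 7 erythroid markers tested, of which 3 were called higher and 3 lower between the groups. The part of erythroid cells in the spread of the GBP genes was not tested.

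**Figure D3:**
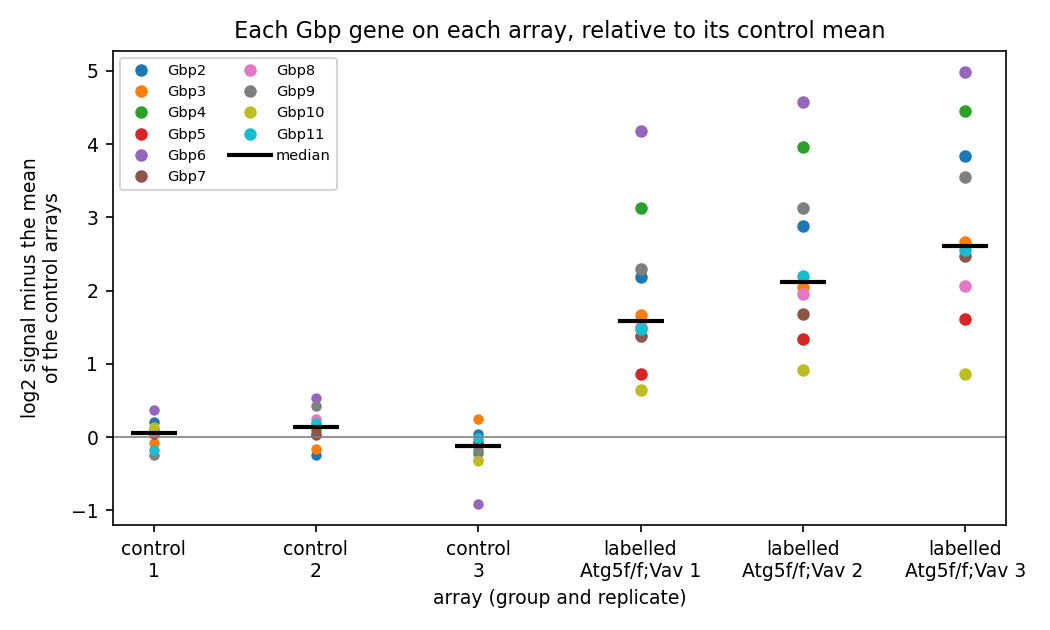
The log2 signal of each GBP gene minus its mean over the control arrays (y axis) is plotted for each of the 6 arrays, with 1 colour for each gene and a bar at the median. The medians are 0.06, 0.14 and −0.13 in control cells, against 1.58, 2.12 and 2.61 on the arrays labelled Atg5f/f;Vav.

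The genes whose pattern over the 6 arrays was nearest to the mean GBP pattern were sought among 14452 other genes well above background on all arrays, by the root-mean-square difference from that pattern. The 5 nearest were Irgm1 (0.21), Aqp1 (0.21), Irgm2 (0.21), Ifit1 (0.25) and Irf7 (0.25), on the log2 scale. Irgm1 and Irgm2 encode immunity-related GTPases, Ifit1 an antiviral protein that binds foreign RNA, Irf7 a transcription factor for type I interferon genes and Aqp1 a water channel that is abundant in red cells. The GBP mean stood at 1.93, 2.46 and 2.90 on the arrays labelled Atg5f/f;Vav, and Aqp1 at 1.49, 2.37 and 3.08.

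Among the interferons and the cytokines that elicit them, no change was called with all 6 arrays. Ifng, the gene of interferon gamma, was not well above background on any array, and neither were Ifnb1, Ifna4, Ifnk, Ifne and Il12b. Of 5 such genes that could be tested, which were the interferon genes Ifna1 and Ifnl3 and the cytokine genes Il12a, Il18 and Il27, 0 were called by limma, with 1 lower at an unadjusted p under 0.05 in limma and 0 in the methods' t-test. Il18, which encodes a cytokine that elicits interferon gamma, had the highest mean signal of them over the 6 arrays and stood at 0.46, 0.72 and 0.62 in control cells, against 0.37, 0.38 and −0.73 on the others (difference −0.59 ± 0.30, limma adjusted p = 0.16). Il12a, a subunit of interleukin-12, had the largest difference (−0.90 ± 0.31, limma adjusted p = 0.0585), which was called under normexp (−0.80), under the percentile over probes seen on every array (−1.11) and without replicate 1 labelled Atg5f/f;Vav (−1.22).

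Among the receptors and signalling genes of interferon gamma read out here, 3 of 7 rose and 0 fell, beside 20.1% and 14.4% of all genes. The receptor genes Ifngr1 (difference 0.39, limma adjusted p = 0.0625) and Ifngr2 (−0.01, 0.97) and the kinase genes Jak1 (−0.22, 0.163) and Jak2 (0.23, 0.184) were not called. Ifngr1 was called higher under normexp (0.38) and without replicate 1 labelled Atg5f/f;Vav (0.48). Jak1 was called lower under quantile normalisation (−0.51) and the percentile over probes seen on every array (−0.42). Irf1, a transcription factor that acts on GBP genes, rose by 1.51 ± 0.14 (limma adjusted p = 0.00547). Irf8, a factor of myeloid cells, rose by 1.49 ± 0.31, and Socs1, an inhibitor of the pathway, by 1.31 ± 0.17. The list's median difference was 0.39. Called higher were 1 of the 7 without control replicate 1 and 2 without control replicate 2, where 0.69% and 0.547% of all genes were called higher.

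In the type I interferon list, 4 of 8 rose and 0 fell, again beside 20.1% of all genes called higher, with a median difference of 0.67. Usp18, which damps signalling at the receptor, rose by 2.71 ± 0.29, Irf7 by 2.17 ± 0.21, Stat2 by 0.87 ± 0.16 and Irf9 by 0.74 ± 0.11. The receptor genes Ifnar1 (−0.14) and Ifnar2 (0.05), the kinase gene Tyk2 (0.60) and Irf3 (0.12) were not called by limma. Tyk2 was called higher under normexp (0.50), spike-in scaling (1.15) and the deposited values (0.63), and without control replicate 3 (0.79). Without control replicate 1 or 2, 2 of the 8 were called higher.

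The other interferon-inducible GTPases moved with the GBP genes in part. Of 12 immunity-related GTPase genes, 7 rose and 2 fell, beside 20.1% and 14.4% of all genes, with a median difference of 2.41. The largest rises were those of Iigp1 (4.76 ± 0.28), Gm4951 (4.28 ± 0.28) and Igtp (3.51 ± 0.32). The falls were those of Gm4841 (−0.60 ± 0.19) and Gm5431 (−0.53 ± 0.12), of which Gm5431 stood at 0.02 under spike-in scaling. Called lower were 4 under the percentile over probes seen on every array, where 27.8% of all genes were, and 0 under spike-in scaling (1.65%). The 7 rises were also called without control replicate 1 and without control replicate 2, the falls under neither. Mx1 (1.58), Mx2 (0.78) and Gvin1 (1.84), from other families of large GTPases, rose as well (both Mx genes also belong to the type I response genes), with 1 of the 3 called without control replicate 1 and 2 without control replicate 2.

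Other response genes rose widely. Of 14 interferon gamma response genes, 12 rose and 0 fell (11 of 13 without Cxcl9, which passed the filter only through the group in which it was higher), with a median difference of 1.46, and of 17 classical type I response genes, 17 rose, with a median of 1.36 (15 of 15 without the Mx genes). Among genes of the first list well above background on the control arrays, the largest differences were those of Cxcl10 (4.42 ± 0.31) and Nlrc5 (2.56 ± 0.14). Cxcl10 encodes a chemokine for T cells, and Nlrc5 the regulator of MHC class I genes. Cxcl9, a related chemokine, was not well above background on any control array and was at least 2.45-fold higher on the others. In the second list the largest differences were those of Isg15 (2.94 ± 0.37), a ubiquitin-like protein, Ifit3 (2.60 ± 0.33) and Ifit1 (2.23 ± 0.28). Called higher without control replicate 1 were 8 of 14 and 7 of 17, and without control replicate 2, 6 of 14 and 9 of 17. The share of all genes called higher was 20.1% with all 6 arrays, 0.69% without control replicate 1 and 0.547% without control replicate 2, and the lists were chosen with earlier results of these arrays known.

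**Figure D4:**
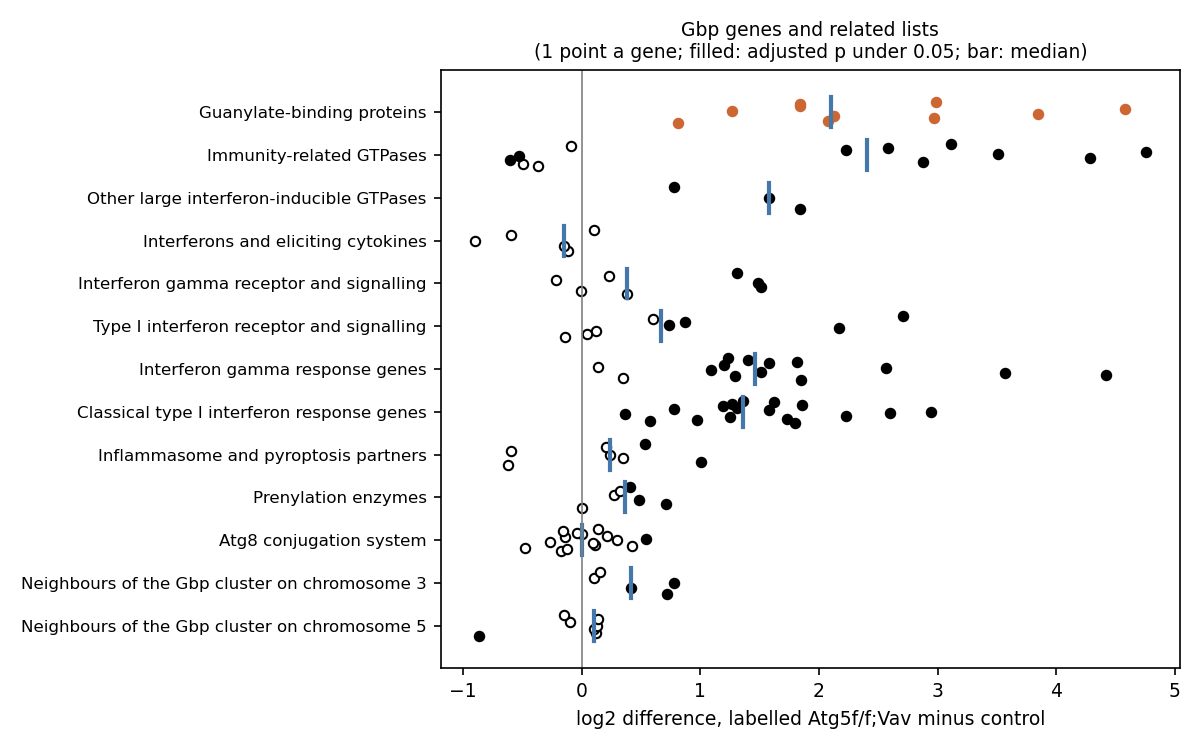
The log2 difference between the group labelled Atg5f/f;Vav and the control group (x axis) is plotted for each gene tested of the GBP family (orange) and of the related lists (black), filled where the limma adjusted p was under 0.05, with a bar at the median of each list. The GBP median is 2.10, the immunity-related GTPase median 2.41, and the medians of the interferons with the cytokines that elicit them and the Atg8 conjugation system are −0.15 and 0.01.

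Genes next to the clusters were read out because neighbours share a region. On chromosome 3, 3 of 5 neighbours rose, beside 20.1% of all genes, which were Lmo4 (0.78 ± 0.11), Ccbl2 (0.72 ± 0.19) and Gtf2b (0.42 ± 0.12), each by less than the 1.27 of the representing Gbp5 probe, but not by less than the mean of both Gbp5 probes (0.41). Of the neighbours on chromosome 5, 0 of 7 rose, which with so few genes is near that share (limma, 0 at an unadjusted p under 0.05 there and in the methods' t-test), and Abcg3, a transporter gene, fell (−0.87 ± 0.28, limma adjusted p = 0.0483). None of these calls was made without control replicate 1 or without control replicate 2. That of Abcg3 was also not made under quantile normalisation (−0.70), spike-in scaling (−0.32) or the deposited values (−0.85), nor without control replicate 3 or replicate 1 labelled Atg5f/f;Vav.

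Of the genes whose products act with GBPs, the Atg8 conjugation list had 1 of 15 called higher, which was Atg5 itself, and 0 lower, beside 20.1% and 14.4% of all genes, with a median difference of 0.01. At an unadjusted p under 0.05, 3 were higher and 1 lower in limma, and 4 and 1 in the methods' t-test. The counts depended on the setting, with 3 higher and 1 lower under normexp, 1 and 2 under quantile normalisation, 1 and 4 under the percentile over probes seen on every array, and 0 and 0 without control replicate 1 or without control replicate 2. Among autophagy receptors and ubiquitin ligases known to act at GBP-coated vacuoles, 3 of 5 rose. Optn, the gene of the receptor optineurin, stood at −2.79, −3.03 and −2.72 in control cells, and at −0.95, −0.11 and 0.92 on the others, a rise of 2.80 ± 0.43 (limma adjusted p = 0.0145). Rnf213, a ubiquitin ligase that targets microbes, rose by 1.18 ± 0.22 and Trim21, a ligase that binds antibody, by 0.76 ± 0.11. Sqstm1, the gene of p62, was not called (0.17 ± 0.12, limma adjusted p = 0.274). None of the 5 was called without control replicate 1 or without control replicate 2, while each rise named here kept its sign under the other scalings.

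The lineage mix that the methods give for mice of this age held antibodies to Gr-1, Ter119, IL7R, B220, CD4 and CD8, a gate that would remove neutrophils, later red cells, B cells and most T cells, but it held none to Mac-1. Markers of other cells were read beside the GBP genes, since fewer cells of a type and less RNA per cell cannot be told apart in such samples. Of the macrophage markers, cells known for strong GBP responses, 0 of 5 tested were called higher (limma, 0 at an unadjusted p under 0.05 there and in the methods' t-test) and Vcam1 fell, while C1qb was called higher under quantile normalisation (0.55). Mrc1 was at background on every array, and the summed signal of the 9 markers, relative to the 75th percentile, was 4.93, 6.11 and 6.51 in control cells, against 6.80, 6.68 and 6.64 on the others, with Csf1r the brightest. Of the T and NK cell markers, Cd3g, Cd8a and Ncr1 were at background on every array and 1 of 6 tested rose. That was Gzmb, the gene of granzyme B, at −7.09, −7.08 and −5.36 on the control arrays, none well above background, and at −1.49, −1.55 and −0.86 on the others, at least 11.7-fold higher. It passed the filter only through the group in which it was higher, and 0 of the 5 other genes tested were called higher with all 6 arrays, though Nkg7 was under spike-in scaling (1.16) and without control replicate 3 (0.94). The summed signal of that list was 7.34, 7.31 and 10.9 in control cells, against 11.8, 11.4 and 10.8 on the others, with Nkg7 the brightest. Of the dendritic cell markers, 1 of 6 rose, Bst2 (1.23 ± 0.17), which is itself known as an interferon-induced gene, while Xcr1 was at background and the summed signal was 182.6, 197.7 and 164.7 against 158.9, 177.6 and 171.0, with Siglech the brightest. Clec9a, not called in that count, was called higher under normexp (0.66) and spike-in scaling (2.49). Flt3 was called lower under normexp (−0.84), quantile normalisation (−1.19) and the percentile over probes seen on every array (−1.08). It was also called lower without replicate 1 labelled Atg5f/f;Vav (−1.22). Of the B cell markers, 1 of 6 rose, Cd79a (0.95 ± 0.22), with the summed signal at 9.72, 8.59 and 10.2 against 11.8, 8.55 and 7.49 and Cd79b the brightest. Both 1 of 6 counts are near the 20.1% of all genes called higher, and neither Bst2 nor Cd79a was called without control replicate 1 or without control replicate 2.

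Markers of neutrophils, red cells and stroma moved with the groups, beside 20.1% of all genes called higher and 14.4% lower. Of the 7 neutrophil markers, 6 fell and 1, Ly6g, rose (0.71 ± 0.12), with the summed signal at 161.4, 77.6 and 124.1 in control cells, against 67.0, 38.7 and 37.5 on the others and S100a9 the brightest. Of the 7 erythroid markers, Car1 (3.80 ± 0.56), Klf1 (2.95 ± 0.53) and Epor (2.08 ± 0.43), which mark early erythroid cells, rose, and Hba-a1 (−2.26 ± 0.32), Alas2 (−2.07 ± 0.40) and Hbb-b1 (−1.92 ± 0.38), which mark late ones, fell, with the summed signal at 497.2, 475.9 and 218.6 against 73.4, 103.3 and 112.4 and Hba-a1 the brightest. Of the 7 stromal and endothelial markers tested, 5 fell, with the summed signal at 7.61, 35.3 and 28.7 against 4.46, 3.27 and 2.67, Emcn the brightest, and Cdh5 and Pdgfra at background. Under spike-in scaling the 6 neutrophil falls kept their direction without the call (−0.66 to −1.06), and 3 stromal markers were called lower. Under quantile normalisation 4 neutrophil and 3 stromal markers were called lower. Without control replicate 1 or 2 none of the neutrophil and erythroid calls was made, and of the stromal ones 3 were made without control replicate 1 and 0 without control replicate 2. The part of these cells in the differences of the GBP genes was not tested.

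The calls for the GBP genes depended on the control arrays. Without control replicate 1, 7 of the 11 GBP probes were called, and 330 of all probes against 11024. The genes no longer called were Gbp5, Gbp7, Gbp10 and Gbp11, with a limma adjusted p from 0.0552 to 0.0673. Without control replicate 2, 5 probes were called, and 251 of all probes. The genes no longer called were Gbp2, Gbp3, Gbp5, Gbp7, Gbp10 and Gbp11, with a limma adjusted p from 0.0544 to 0.0695. Their log2 differences moved little, as for Gbp2 from 2.97 to 2.85 and for Gbp5 from 1.27 to 1.29. Gbp4, Gbp6, Gbp8 and Gbp9 were called with any single array left out. Without control replicate 3 or any 1 of the arrays labelled Atg5f/f;Vav, 11 GBP probes were called. Each of these counts includes the second Gbp8 probe, without which 6 were called without control replicate 1, 4 without control replicate 2 and 10 otherwise.

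**Figure D5:**
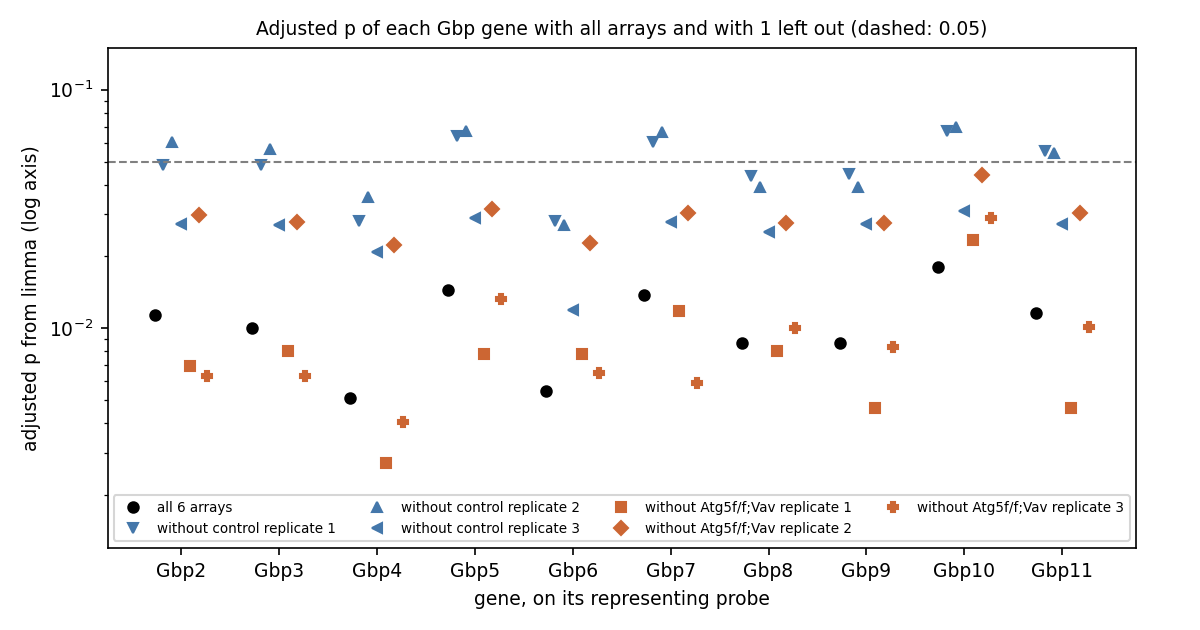
The limma adjusted p (y axis, log scale) of each GBP gene on its representing probe is plotted with all 6 arrays (black), with 1 control array left out (blue) and with 1 array labelled Atg5f/f;Vav left out (orange), against a dashed line at 0.05. Points above the line are from the fits without control replicate 1, for 4 genes, and without control replicate 2, for 6 genes.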

How the data were processed

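LSK cells had been sorted into TRIzol, and RNA was labelled with Cy3 and hybridised to 1-colour Agilent arrays with 60-base probes on mm9. The authors deposited scanner intensity for every spot, which Feature Extraction (Agilent Feature Extraction, version 12.0.3.1 in the submitters' processing notes) had corrected for background. They also deposited a table of normalised signal, which was checked to be each array's intensity divided by 1 constant (the ratio varied by at most 0.000267%), equal to its 75th percentile over all 62976 spots.

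Each array's 75th percentile over its 59305 non-control spots was subtracted from the log2 intensity of the scanner files. The scanner software had flagged 64 to 81 spots per array as outliers, and these were dropped. There were no saturated spots. Spots of 1 probe were averaged, and a probe was tested if it was well above background on 3 or more of the 6 arrays, in limma 3.58.1 under R 4.3.3 (lmFit and eBayes, Benjamini-Hochberg, threshold 0.05), after a test of the steps on simulated data. "At least" folds set the mean of 1 group against, per array, the higher of the probe's own signal and the lowest signal well above background. The number of arrays limits the precision.

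The members and lists were chosen with earlier results of these data known. Named are all members, the members of the 2 interferon signalling lists, Ifng, Atg5, the largest called rises and falls of each list (at most 3 each way) and the 5 genes nearest in pattern. Others named to complete a count of calls, markers at background and each list's brightest gene were chosen after their values were seen. Alternatives were normexp (offset 50), quantile normalisation, scaling to the percentile of the probes seen on every array, spike-in scaling (241 spots), the deposited values, no filter and a filter on all 6 arrays, flagged spots kept, an intensity trend, the methods' t-test (Student's, on the same values), a replicate block, each array left out and the mean of a gene's probes. The read-out of the lists under other scalings and with arrays left out, that of the GBP order and array medians under other scalings, and raising control values at background to the lowest signal well above it, were chosen after seeing the data. One signalling gene and a promoter motif are not reported here. RefSeq names and promoters of GRCm38.p6 were matched by symbol.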

Additional observations from a re-analysis of the deposited data

Results flagged for a closer look

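Gbp2b, a gene of the chromosome 3 cluster outside the 10 members, was left out of the test because its probe (mm9, chromosome 3, 142282066 to 142282125) was well above background on only 2 arrays, and it drew attention because 1 of these stood above every control array. It stood at −7.06, −7.03 and −3.40 (log2 signal) in control cells, against −7.07, −6.83 and −0.0079 for the arrays labelled Atg5f/f;Vav, so that replicate 3 of each group stood apart from the other 2. The groups overlapped (exact permutation p = 0.7). GBP genes with a probe tested showed no such gap between the control arrays, with Gbp6 on control replicate 3 the farthest below its control mean (−0.91).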

How the results depend on the processing

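Of 178 values of single GBP genes under the alternatives, 157 kept their direction and call, 21 kept the direction without the call and 0 reversed. Over all probes, 11024 were called, against 4888 under spike-in scaling, 4538 without a filter on dim probes and 251 to 10304 with 1 array left out. Of the GBP probes 11 were called, and 5 to 11 with 1 array left out, the lowest without control replicate 2 and the next without control replicate 1. The methods' t-test called 13541 probes and 11 GBP probes at an unadjusted p under 0.05, and 0 and 0 after Benjamini-Hochberg adjustment, where the GBP genes stood at 0.0534 to 0.0612. The GBP median of 2.10 moved to 2.65 under spike-in scaling, which raised the median of all probes from −0.06 to 0.49 and in which eBayes gave 1 common SE (0.40) to every probe, so its p-values say little. It was 1.63 with normexp and 1.89 with the percentile over probes seen on every array. With 1 array left out the GBP median was 1.85 to 2.36. A filter on all 6 arrays kept 9 GBP probes, of which 8 were called. The replicate numbers did not pair the samples, since the deviations of same-numbered arrays correlated at −0.07, 0.19 and 0.11 and not every array correlated best with its own number. The fit with the replicate number as a block called 10173 probes and 11 GBP probes. Slide and scan could not be used as blocks, since there was 1 of each. Normexp brought the differences to 2.94 for Gbp4, 2.87 for Gbp6, 1.14 for Gbp8, 1.47 for Gbp9, 0.38 for Gbp10 and 1.49 for Gbp11. It turned the larger rise of Gbp6 over Gbp4 to −0.073 and that of Gbp8 over Gbp5 to −0.076, and brought Gbp9 against Gbp2 from 0.02 to −1.46, with no overlap between the groups. The causes of these changes were not tested. Signal over background limits what the control arrays show for Gbp6, Gbp9 and the second Gbp8 probe.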

Other observations

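Other partners of the GBP genes were measured as well. Of 7 inflammasome and pyroptosis genes, 2 rose and 0 fell, a share near the 20.1% of all genes called higher. They were Casp1 (1.01 ± 0.27, limma adjusted p = 0.0307), the protease that matures interleukin-1, and Pycard (0.54 ± 0.11, limma adjusted p = 0.0183), its adaptor. Under quantile normalisation 0 of the 7 were called. Nlrp3 was not well above background on any array, and Casp4 (0.35) and Gsdmd (0.23), which act in the response to cytosolic bacteria, were not called. Casp4 was called higher without replicate 3 labelled Atg5f/f;Vav (0.50). Aim2, another gene of this list, was called lower under normexp (−0.57) and the percentile over probes seen on every array (−0.83). It was also called lower without replicate 1 labelled Atg5f/f;Vav (−0.76). Of 6 genes of protein prenylation, not all of which need act on Gbp2 and Gbp5, 3 rose and 0 fell. The rises were 0.71 ± 0.16 for Fntb, 0.48 ± 0.15 for Icmt and 0.41 ± 0.12 for Zmpste24, with a list median of 0.37. Pggt1b was called higher under quantile normalisation (0.37). Only 1 of the 6, Fntb, was called under the percentile over probes seen on every array, under spike-in scaling and without any 1 of the arrays labelled Atg5f/f;Vav. None of the rises in these lists was called without control replicate 1 or without control replicate 2.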
